A study of Mus musculus with 12 samples.

Results

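The comparison of olaparib plus ADU-S100 with olaparib alone covers 6 of the 12 tumors of the series, namely the 3 labelled with both drugs and the 3 labelled with olaparib only. All were mammary tumors with K14-Cre and floxed Brca1 and Trp53 alleles, a triple-negative model in which keratin 14-driven Cre deletes Brca1 and Trp53 in epithelium, grown in the fat pad of FVB/129P2 females of a matching background whose age is not given. Both groups received olaparib at 50 mg/kg intraperitoneally every day for 3 days. The combination group also received 50 μg ADU-S100 in a single intratumoral injection of 40 μl on the first day, where the olaparib group received saline. The remaining 6 tumors, from mice given vehicle (DMSO and saline) or ADU-S100 with DMSO, entered the estimate of the spread. Tumors are named by the numbers in their labels, which are 1510, 1517 and 1521 for olaparib and 1251, 1270 and 1539 for the combination. What these numbers stand for is not given, and numbers that begin with 12 occur in the combination but not in the olaparib group.

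Olaparib inhibits PARP enzymes, and cells without BRCA1 cannot repair the resulting DNA damage by homologous recombination. DNA that reaches the cytosol activates cGAS and STING, which switch on type I interferons and inflammatory cytokines. ADU-S100, a synthetic cyclic dinucleotide, binds STING directly. Interferons in turn raise antigen presentation and the chemokines that attract T cells. The comparison asks which immune transcripts differ when STING is activated by a drug on top of PARP inhibition.

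mRNA was counted with an nCounter immune panel. The deposited table holds 750 genes, of which 689 had a normalized count of at least 20 in at least 3 of the 12 tumors. Differences are given as log2(normalized count + 1) of the combination minus olaparib, and the added 1 shrinks changes of low counts. Values at the background also differed between tumors, as given below with the depth of counting. The olaparib tumors were far less alike than the combination tumors. The median SD of a gene between tumors was 1.08 on the log2 scale in olaparib and 0.28 in the combination, and Pearson's r between tumors over the 689 genes was 0.75 to 0.91 in olaparib and 0.96 to 0.98 in the combination. The factor by which the normalization multiplied each count was 1.95, 10.5 and 0.589 in olaparib tumors 1510, 1517 and 1521, and 0.810 to 0.824 in the combination. The recovered counts summed to 106206 in tumor 1517 and to between 480055 and 1491854 in the other 5 tumors. Tumor 1517 also stood apart in the transcripts of cell type markers. The summed normalized count of 16 endothelial markers was 44632 in that tumor, 4056 and 4080 in the other olaparib tumors, and 4270 to 6248 in the combination. Epcam and Cdh1, which mark the epithelium of the tumor, were present in all 6 tumors at 4580 or more normalized counts. The sum of 9 epithelial genes, much of it Lcn2, was 42065 in tumor 1517 and 153706 to 343527 in the other 5. Of these 9 genes, 3 had a higher mean in the combination, and their median log2 difference was -0.27.

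In limma over the 12 tumors, 0 of the 689 genes (0%) reached a Benjamini-Hochberg adjusted p below 0.05. The smallest adjusted p was 0.463. At an unadjusted p below 0.05, 31 genes (4.5%) were higher and 19 (2.76%) were lower in the combination. The 3 combination tumors lay above all 3 olaparib tumors for 76 genes (11%) and below them for 12 (1.74%). This imbalance depended on the scaling and on tumor 1521, with 55 genes above and 64 below when each tumor had the same median, 65 and 59 with quantile normalization, and 105 and 226 without tumor 1521. Leaving out a tumor cannot lower either count, so that only the balance of the last pair can be set beside 76 and 12. Fewer genes had a higher than a lower mean, with 285 of 689 (41.4%) above 0 and a median log2 difference of -0.15. This direction rested on tumor 1517, since the median over all genes was 0.22 without it, -0.20 without tumor 1510 and -0.53 without tumor 1521. The balance of higher and lower genes at an unadjusted p below 0.05 also moved with the processing. It was 33 higher and 44 lower with each tumor scaled to the same median, 20 and 71 by edgeR, 39 and 91 by DESeq2, 87 and 2 when the fit included each tumor's log2 factor (median 0.44), and 47 and 152 without tumor 1521. Differences that stayed at an unadjusted p below 0.05, in the same direction, with all tumors and without each olaparib tumor in turn are said here to hold. Of the 689 genes, 9 held as higher (1.31%) and 1 held as lower (0.145%). Other scalings gave other splits, with 13 higher and 15 lower at the same median, 18 and 14 with quantile normalization, and 32 and 0 when the fit included the factor. The 9 were H2-Aa, H2-DMb2, Cd74, Ctss, Mr1, Clec7a, Lbp, St6gal1 and Ltb, and the 1 lower gene was Smpd3. All of them had adjusted p-values of 0.463 or 0.594 in limma, so none is a call at the adjusted threshold in this fit. Of the 10 genes, 5 passed that threshold in DESeq2 and 5 in limma without tumor 1521. With estimated tumor weights, whose estimation did not converge, 8 passed. None passed in the other settings. The 10 were picked for small p-values in these data, so that these counts are no separate evidence.

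Promoter sequences of 4 of these genes are shown because they carry the motifs through which class II, interferon and NF-kB regulated genes are known to be read. RefSeq's promoter table (GRCm38.p6) lists 7 of the 10 genes. Capitals mark matches to a Y box (TGATTGG), an interferon response element (GAAANNGAA) or a kappaB site, searched on both strands in windows of 250 bases before to 50 after the start of transcription. Each window is printed for the 150 bases before the start, 5′ to 3′ on the gene's strand.
H2-Aa (chr17:34287824-34287973, minus strand): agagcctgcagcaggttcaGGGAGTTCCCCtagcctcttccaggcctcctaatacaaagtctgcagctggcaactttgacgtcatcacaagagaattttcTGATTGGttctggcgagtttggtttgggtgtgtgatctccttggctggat
H2-DMb2 (chr17:34145099-34145248, plus strand): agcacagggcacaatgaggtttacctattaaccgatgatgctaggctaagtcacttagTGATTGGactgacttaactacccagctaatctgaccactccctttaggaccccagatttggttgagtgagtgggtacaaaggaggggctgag
Ctss (chr3:95526636-95526785, plus strand): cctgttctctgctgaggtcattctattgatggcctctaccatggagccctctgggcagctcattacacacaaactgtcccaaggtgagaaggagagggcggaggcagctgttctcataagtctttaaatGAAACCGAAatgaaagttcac
Ltb (chr17:35194357-35194506, plus strand): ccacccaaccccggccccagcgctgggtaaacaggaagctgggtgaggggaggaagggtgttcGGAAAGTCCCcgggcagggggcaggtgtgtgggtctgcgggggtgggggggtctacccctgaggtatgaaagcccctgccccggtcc
The Y box begins 50 bases before the start in H2-Aa and 92 bases before it in H2-DMb2. The element in Ctss begins 21 bases before the start. The kappaB matches begin 131 and 130 bases before the start in H2-Aa, where they overlap, and 87 bases before it in Ltb. Of all 32851 promoter windows in the table, 7.82% hold the Y box, 8.56% the interferon response element and 8.46% the kappaB match. The windows listed for Clec7a, Mr1 and St6gal1 hold none of the 3. A match is a description of the sequence and not a measured site.

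Among the genes that held were H2-Aa, H2-DMb2, Cd74 and Ctss of the MHC class II pathway. Class II molecules present peptides from the endosome to CD4+ T cells on dendritic cells, macrophages and B cells. H2-Aa, the I-A alpha chain, had normalized counts of 5796, 3385 and 4288 in olaparib tumors 1510, 1517 and 1521, and of 15231, 18905 and 14123 in combination tumors 1251, 1270 and 1539. Every combination tumor was well above every olaparib tumor, and the 3 olaparib tumors were close together in spite of their different factors. The log2 difference was 1.86 (SE 0.46, limma adjusted p = 0.463), and it was 2.07, 1.68 and 1.85 without tumors 1510, 1517 and 1521.

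H2-DMb2, a beta chain of the DM molecule that loads peptides onto class II, had 54.6, 83.8 and 78.4 normalized counts in olaparib and 190, 261 and 203 in the combination. Here too the groups did not overlap, although the value in tumor 1517 rests on 8 recovered counts. The log2 difference of 1.59 (SE 0.39, limma adjusted p = 0.463) stayed between 1.40 and 1.71 with each of the 6 tumors left out. H2-DMa, the alpha chain of DM, was named here with earlier results of these data known. It had 512, 346 and 288 normalized counts in olaparib and 695, 1401 and 697 in the combination. It did not overlap between the groups either, but its limma p was 0.0707 without tumor 1521, so that it did not hold.

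Cd74, the invariant chain that escorts class II through the cell, had 15446, 7011 and 5252 normalized counts in olaparib and 21484, 49444 and 19764 in the combination. Its log2 difference was 1.74 (SE 0.56), and the highest olaparib tumor lay not far below the lowest combination tumor. Ctss encodes cathepsin S, the protease that cuts the invariant chain. It had 1019, 555 and 2556 normalized counts in olaparib and 4528, 3150 and 3929 in the combination, with a log2 difference of 1.76 (SE 0.55). Tumor 1521 was closest to the combination for this gene, and without it the difference was 2.35 (limma adjusted p = 0.0287). H2-Ab1, the beta chain of I-A, had 6355, 4642 and 2451 normalized counts in olaparib and 8758, 9775 and 8812 in the combination. Its groups did not overlap, but its log2 difference of 1.13 (SE 0.54) had a limma p of 0.0605, and it was 0.74 without tumor 1521.

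Of the 13 class II genes kept, 10 had a higher mean in the combination, 5 of them at an unadjusted p below 0.05 (4.5% of all genes), and 0 were lower at that p. The combination lay above olaparib without overlap for 6 (11% of all genes). The median log2 difference of the list was 0.68, against -0.15 over all 689 genes, and it was 1.12, 0.90 and 0.21 without tumors 1510, 1517 and 1521, where the median over all genes was -0.20, 0.22 and -0.53. The 3 members with a lower mean, named here after their values were seen, were the cathepsins Ctsl (-0.61) and Ctsh (-0.21) and the pseudogene H2-Ea-ps (-0.05). H2-Ob (0.16), H2-Eb1 (0.43) and H2-DMb1 (0.48), named in the same way, were the next lowest. For H2-Eb1 and H2-DMb1, tumors 1510 and 1517 were near the combination and only tumor 1521 was low. Ciita, the master activator of class II transcription and likewise picked after its values were seen, had 294, 168 and 81.9 normalized counts in olaparib and 213, 354 and 225 in the combination, and its groups overlapped. The summed normalized count of the list was 17773 to 36573 in olaparib and 53425 to 90747 in the combination. Cd74 and H2-Aa, which are printed because they held, make up a large part of this sum. Sums without overlap, higher in the combination, were also seen for the MHC class I, T cell chemokine, neutrophil and epithelial lists. The sums of the remaining lists overlapped. The summed count of 12 general leukocyte markers was 3378 to 5386 in olaparib and 4779 to 5279 in the combination, so that these overlapped. By single genes the leukocyte markers moved with the class II genes, with 8 of 12 higher, 4 above olaparib without overlap, 0 below it, and a median of 0.40 (0.44, 0.73 and 0.25 without tumors 1510, 1517 and 1521). The part of leukocyte content in the class II differences was not tested. Ptprc, which encodes CD45, differed by 0.34 (SE 0.57). In whole tumor RNA, more cells of a type and more RNA per cell cannot be told apart.

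**Figure D1:**
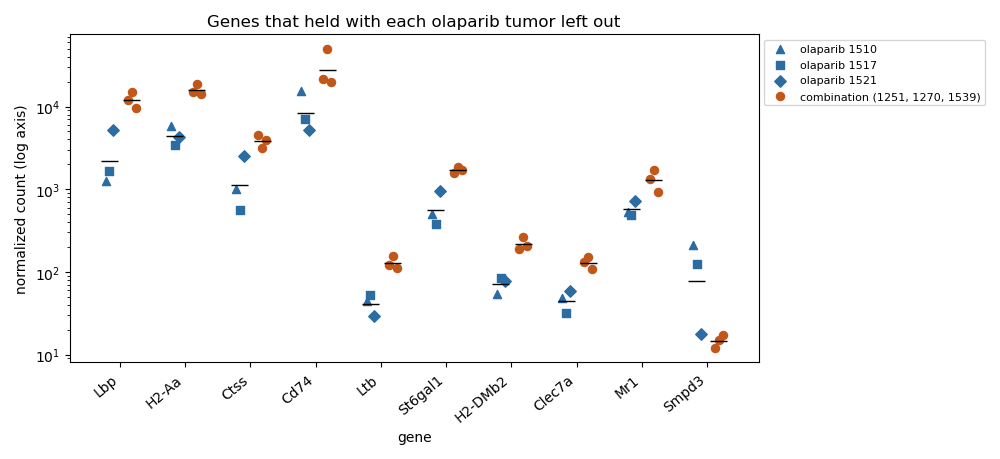
Normalized counts (log axis) of the 10 genes that held with each olaparib tumor left out, in olaparib tumors (blue, 1 symbol per tumor) and combination tumors (orange), with black bars at the geometric mean of each group. The groups do not overlap for any of the 10 genes, and for Smpd3 olaparib tumor 1521 sits just above the combination.

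The other genes that held have different roles. Lbp, which binds bacterial lipopolysaccharide and hands it to Cd14, had the largest log2 difference of the 9 higher genes that held. Its normalized count was 1255, 1645 and 5278 in olaparib and 12116, 14991 and 9722 in the combination (2.45, SE 0.61, limma adjusted p = 0.463). Tumor 1521 lay between the other olaparib tumors and the combination, and the difference was 3.07 without it and 2.04 without tumor 1510. St6gal1, a sialyltransferase that caps glycans on cell surface proteins, had 499, 377 and 948 normalized counts in olaparib and 1577, 1838 and 1729 in the combination, with a log2 difference of 1.60 (SE 0.46). The 3 combination tumors were nearly equal.

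Clec7a, the beta-glucan receptor Dectin-1 of myeloid cells, had 48.7, 31.4 and 58.3 normalized counts in olaparib and 131, 151 and 107 in the combination. The log2 difference was 1.50 (SE 0.48), but the value in tumor 1517 is 3 recovered counts. Ltb, the lymphotoxin beta chain of the TNF superfamily, had 44.8, 52.4 and 29.5 in olaparib and 122, 157 and 112 in the combination, with a log2 difference of 1.62 (SE 0.53) and 5 recovered counts in tumor 1517. Without tumor 1517 the differences were 1.25 for Clec7a and 1.80 for Ltb. Mr1 presents vitamin B metabolites to mucosal-associated invariant T cells, and had 534, 493 and 720 in olaparib and 1342, 1699 and 926 in the combination (log2 difference 1.16, SE 0.42).

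Smpd3, a neutral sphingomyelinase, was the 1 gene that held as lower. It had 214, 126 and 17.7 normalized counts in olaparib and 12.2, 14.8 and 17.2 in the combination (log2 difference -2.36, SE 0.74). Tumor 1521 exceeded the highest combination tumor by less than 1 normalized count, and the combination values rest on 15 to 21 recovered counts.

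**Figure D2:**
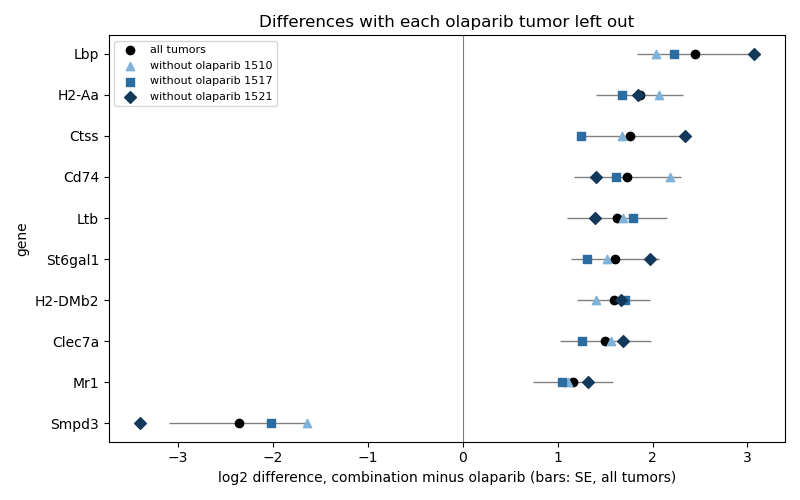
Log2 difference between combination and olaparib for the same 10 genes with all tumors (black, bars are the SE) and without each olaparib tumor. The rule for holding requires that no gene changes side of 0 in these fits. Lbp and Smpd3 move most, to 3.07 and -3.40 without tumor 1521.

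With each combination tumor left out as well, 8 of the 10 genes stayed at an unadjusted p below 0.05, and Cd74 and Mr1 did not. In the tumors numbered from 15 alone, where 1 combination tumor stands against the 3 olaparib tumors, all 10 kept their direction. With 1 combination tumor the spread comes from the other groups, so that no p-values are given for this fit. H2-Aa had a log2 difference of 1.69 there, H2-DMb2 of 1.50 and Mr1 of 0.69. With the number series as a block, 7 of the 10 had an unadjusted p below 0.05, and H2-Aa and H2-DMb2 also held with each olaparib tumor left out. The number series and the treatment are partly confounded, and the part of the series in these differences was not tested further.

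Chemokines draw leukocytes into the tumor. Of 10 T cell chemokine genes and receptors, 9 had a higher mean, 3 at an unadjusted p below 0.05 (4.5% of all genes), with a median of 0.51 against -0.15 over all genes. Without tumor 1517 these medians were 0.95 and 0.22. Ccl5 had 222, 83.8 and 225 normalized counts in olaparib and 1372, 462 and 446 in the combination (log2 difference 2.02, SE 0.70). The groups did not overlap and tumor 1251 was the highest, but the limma p was 0.057 without tumor 1517. Cxcl16 (1.16) and Xcl1 (1.65), a ligand for cross-presenting dendritic cells, overlapped between the groups. Cxcl9 had 140, 210 and 110 in olaparib and 244, 713 and 707 in the combination (1.74, SE 0.84), while Cxcl10, induced by the same interferons, differed by 0.37 (SE 0.74). The SLAM receptors, which lymphocytes use to sense each other, had a median of 0.77 over 8 genes, with 6 higher. The combination lay above olaparib without overlap for 3 of the 8 (11% of all genes). Of the 8, only Ly9 had an unadjusted p below 0.05 (4.5% of all genes higher), and it rests on 1 recovered count in tumor 1517.

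Of 40 interferon-stimulated genes, 0 were higher and 0 lower at an unadjusted limma p below 0.05, where 4.5% and 2.76% of all genes were. Of the 40, 26 had a higher mean (41.4% of all genes), and the combination did not overlap olaparib for 12, all higher (11% of all genes). The median was 0.36, and it was 0.67, 0.29 and 0.14 without tumors 1510, 1517 and 1521. Irf7, a transcription factor that amplifies interferon responses, had 1448, 702 and 1464 normalized counts in olaparib and 3976, 2460 and 3379 in the combination (log2 difference 1.49, SE 0.90). Gbp2b, a guanylate-binding protein, differed by 1.25 (SE 0.60), and Psmb8, a subunit of the immunoproteasome, by 0.90 (SE 0.44), both without overlap. Ifit3, picked after its values were seen, ran from 3481 to 28772 normalized counts in olaparib and from 5333 to 8481 in the combination. Ifnb1 itself had 46.8, 52.4 and 12.4 normalized counts in olaparib and 15.4, 9.07 and 20.5 in the combination, all from 25 recovered counts or fewer. Tmem173, which encodes STING, the target of ADU-S100, had 793, 713 and 496 in olaparib and 654, 916 and 569 in the combination and differed by 0.09 (SE 0.36).

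Lymphocyte genes gave no common direction. The T cell list had 15 of 24 genes higher, 2 of them at an unadjusted p below 0.05 (4.5% of all genes) and 4 without overlap (11%), and a median of 0.23, which was 0.87 without tumor 1517 and -0.36 without tumor 1521. Tcf7, a transcription factor of naive and memory T cells, had 44.8, 83.8 and 266 normalized counts in olaparib and 335, 321 and 321 in the combination (1.69, SE 0.62). Itgal, the alpha chain of the integrin LFA-1, had 54.6, 168 and 93.1 in olaparib and 178, 196 and 203 in the combination (1.01, SE 0.42). Cd8a (0.47, SE 0.57), Cd4 (0.18, SE 0.52), Foxp3 (0.10, SE 0.82), Tbx21 (-0.87, SE 0.76) and Gzmb (-0.65, SE 0.83) had limma p-values of 0.277 or more, and each of them changed sign under at least 1 alternative processing or left-out tumor. Of the 26 cytotoxic and NK genes, 6 had a higher mean and the median was -0.36, which turned to 0.42 without tumor 1517. Of the 26, 3 were higher and 1 lower at an unadjusted p below 0.05 (4.5% and 2.76% of all genes). The combination lay above olaparib without overlap for 3 and below it for 0, close to the shares over all genes (11% and 1.74%).

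Myeloid lists outside the class II pathway had medians of either sign with all tumors. Without tumor 1517 the medians were 0.36 for monocyte and macrophage genes, 0.31 for myeloid chemokines and 0.47 for neutrophil genes. The lists were not compared by a test. Of 31 monocyte and macrophage genes, 20 had a higher mean (41.4% of all genes), with a median of 0.19 (0.12, 0.36 and 0.08 without tumors 1510, 1517 and 1521). In that list 1 gene was higher and 1 lower at an unadjusted p below 0.05 (4.5% and 2.76% of all genes), and 4 lay above olaparib and 1 below it without overlap, close to the shares over all genes (11% and 1.74%). Of 21 myeloid chemokine genes, 9 had a higher mean, with 0 higher and 2 lower at that p, 1 above and 1 below olaparib without overlap, and a median of -0.20 (0.01, 0.31 and -0.58 without tumors 1510, 1517 and 1521). Of 12 neutrophil genes, 7 had a higher mean, 2 of them at that p, and 3 lay above olaparib without overlap, with a median of 0.13 that was -0.07 without tumor 1521. Cybb, the catalytic subunit of the phagocyte NADPH oxidase, had 325, 241 and 704 normalized counts in olaparib and 945, 904 and 917 in the combination (1.27, SE 0.46). Lcn2, an iron-sequestering protein of epithelium and neutrophils, had 111497, 13099 and 173281 normalized counts in olaparib and 312652, 216831 and 237588 in the combination (2.0, SE 0.79). For both, tumor 1517 was the lowest of the 6, and without it the limma p was 0.0601 for Cybb and 0.0794 for Lcn2. Of 22 NF-kB and inflammatory cytokine genes, which also lie downstream of STING, 6 had a higher mean (41.4% of all genes), and 0 were higher and 0 lower at an unadjusted p below 0.05 (4.5% and 2.76% of all genes). The median was -0.28, against -0.15 over all genes.

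**Figure D3:**
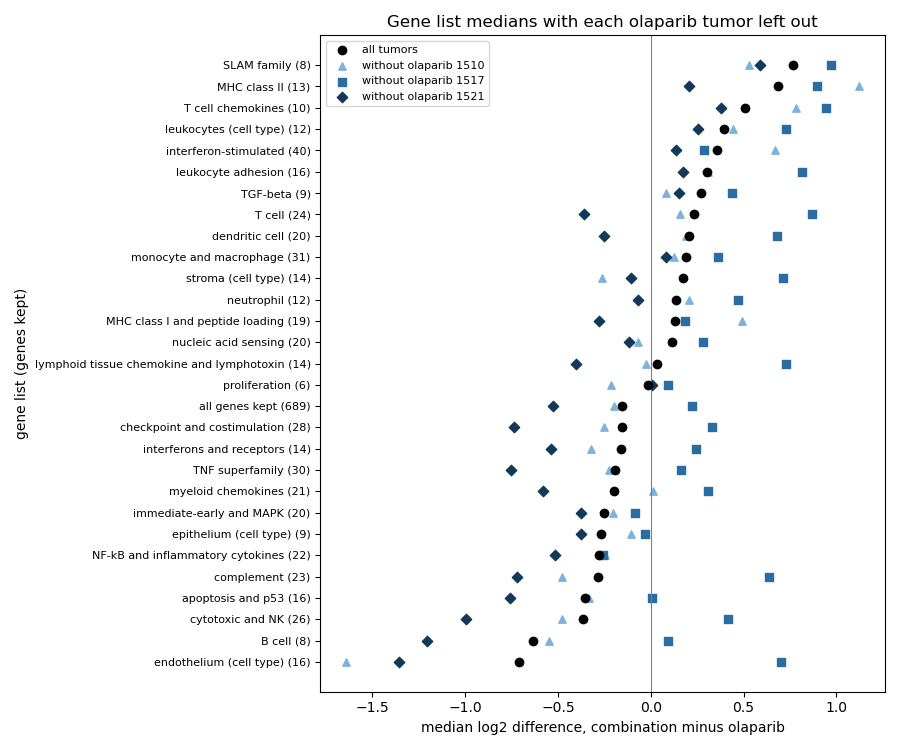
Median log2 difference between combination and olaparib for 28 gene lists and for all 689 genes (number of genes kept in parentheses), with all tumors and without each olaparib tumor. The medians of 8 lists, with SLAM, class II and T cell chemokine genes the highest with all tumors, stay above 0 in each of the 4 cases, while that of endothelial genes runs from -1.64 to 0.70.

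The endothelial list shows how far 1 tumor could set a list. Of its 16 genes, 2 had a higher mean in the combination and the median was -0.71, but it was 0.70 without tumor 1517. Pecam1, which encodes the endothelial adhesion molecule CD31 and was picked after its values were seen, had 105, 8625 and 300 normalized counts in olaparib and 388, 387 and 468 in the combination. Tumor 1517 alone was high, and the other 2 olaparib tumors were below the combination.

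Among the genes with lower values in the combination, several had tumor 1521 at the combination's level. Il22ra1, a chain of the interleukin-22 receptor, had 146, 147 and 14.1 normalized counts in olaparib and 17.0, 11.5 and 11.5 in the combination (log2 difference -2.29, SE 0.77). Tumor 1521 was within the range of the combination. Cd99, a surface protein of leukocytes and endothelium, had 3711, 7398 and 890 in olaparib and 762, 599 and 1138 in the combination (-1.85, SE 0.71), with tumor 1521 again among the combination tumors. Nfatc2, a calcium-dependent transcription factor of T cells, had 312, 430 and 92.5 in olaparib and 82.6, 72.5 and 85.3 in the combination (-1.52, SE 0.58). Tyk2, a kinase of the interferon receptor, had 2057, 1897 and 198 in olaparib and 264, 297 and 301 in the combination (-1.68, SE 0.77), and tumor 1521 was the lowest of the 6.

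Without tumor 1521, 12 genes (1.74%) were higher and 42 (6.1%) were lower at an adjusted p below 0.05 in limma. Of the 42 lower genes, 14 had a value in tumor 1521 within the range of the combination, 24 had one below it and 4 one above it. Of the same 42, 22 (52.4%) had 20 recovered counts or fewer in tumor 1517, as did 272 of all 689 genes (39.5%). Without tumor 1517 or tumor 1510 in place of 1521, 0 genes passed, and 1 and 3 genes were lower at an unadjusted p below 0.05. With all tumors, 26 of the 31 genes higher at an unadjusted p below 0.05 did not overlap between the groups (11% of all genes lay above), and 7 of the 19 lower genes did not (1.74% lay below). The 31 and the 19 were picked by p on the same values, so that shares above those of all genes were part of the choice.

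**Figure D4:**
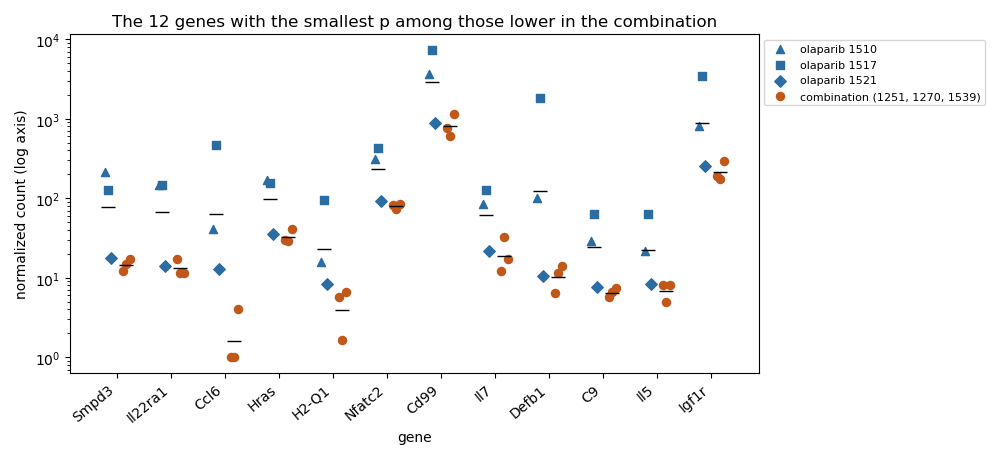
Normalized counts (log axis) of the 12 genes with the smallest limma p among those lower in the combination, with symbols as for the genes that held and black bars at the geometric mean. Olaparib tumor 1521 lies near or among the combination tumors, except for Ccl6, and tumors 1510 and 1517 lie above it for each of the 12 genes.

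Direction also went with the depth of counting. Among the 173 genes with the lowest mean recovered count (6.42 to 42.1), 21.4% had a higher mean in the combination, and 13 of the 19 genes lower at an unadjusted p below 0.05 were there. Among the 172 genes with the highest mean recovered count (825 or more), 59.3% had a higher mean, and the median log2 difference was 0.19 against -0.65 in the 173 genes counted least. Of the 19 lower genes, 10 had 20 recovered counts or fewer in every combination tumor, where the value is near the level of the least counted probes. After subtraction of a background per tumor, the counts at an unadjusted p below 0.05 were 44 higher and 17 lower, and all 10 genes that held did so again.

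**Figure D5:**
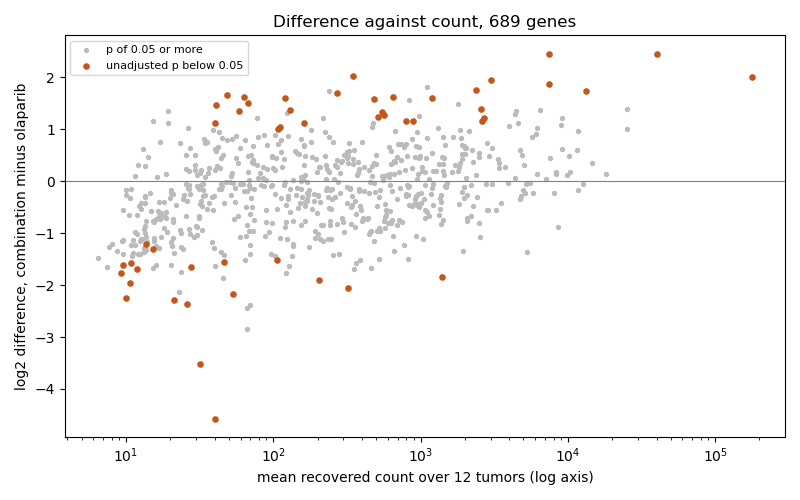
Log2 difference between combination and olaparib (vertical axis) against the mean recovered count over the 12 tumors (log axis) for 689 genes, with those at an unadjusted p below 0.05 in orange. Most of the lower orange genes are at mean counts under 42.1, and the higher ones spread up to the most counted genes.

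The 6 remaining tumors allow the effect of ADU-S100 on top of olaparib to be set beside its effect without olaparib. Opposite signs were common over all genes, with the same sign in 217 of 689, and the median effect was 0.44 without olaparib against -0.15 on top of it. The median on top of olaparib was 0.22 without tumor 1517 and 0.44 when the fit included the factor. That factor was 0.682 to 1.49 in vehicle and 1.43 to 2.85 in ADU-S100 tumors. The part of tumor 1517 and of the scaling in the signs was not tested. H2-Aa and Lbp are given here because they held in the comparison with olaparib, so that their large difference on top of olaparib was already part of the choice. For H2-Aa the effect without olaparib was -0.92, and the difference between the effects was 2.78 (SE 0.65, limma adjusted p = 0.346). For Lbp the effect without olaparib was -0.70 and the difference was 3.15 (SE 0.87, limma adjusted p = 0.346). Ccl5 was 1.53 higher with ADU-S100 than with vehicle, near its 2.02 on top of olaparib, and the difference of 0.49 (SE 0.99) was within the spread. For this difference limma called 0 of the 689 genes at the adjusted threshold, while 13 were higher and 62 lower at an unadjusted p below 0.05. This split turned to 64 higher and 5 lower when the fit included the factor, and was 49 and 49 with quantile normalization.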

How the data were processed

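The authors hybridized 100 ng of RNA from each tumor to the nCounter mouse immune panel and normalized the counts in nSolver, with background correction and scaling to positive controls and housekeeping genes. The deposited table holds normalized counts, a linear signal with a floor of 1. Probe counts were recovered as whole multiples of 1 step per tumor (at least 99.9% whole within 0.01 of a count).

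Limma 3.58.1 in R 4.3.3 (lmFit, eBayes) fitted log2(value + 1) of 689 genes with 1 mean per group over 12 tumors, leaving 8 residual degrees of freedom. P-values were Benjamini-Hochberg adjusted over all genes. The fits were tested on simulated data. With 3 tumors against 3, an exact permutation test cannot go below p = 0.1, so none is given for single genes. The labels do not say that tumors of a group came from separate donor tumors, so p-values measure the spread between these tumors. edgeR 4.0.16 and DESeq2 1.42.0 on recovered counts were alternatives.

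The comparison, the gene lists and the members were chosen with earlier results of these data known. Named genes followed a rule (103 genes): the 12 smallest p-values in each direction, the genes that held, the 6 smallest in each direction without each olaparib tumor, the 3 smallest per list, and those the study names. H2-DMa, Epcam and Cdh1 were named outside this rule, as were the genes marked as picked after their values were seen. Whether genes held under other settings was added after seeing the data. Symbols were as deposited, of which 736 of 750 are current in RefSeq. Counting intervals were not computed, and the number of recovered counts is given where it is low.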

Additional observations from a re-analysis of the deposited data

How the results depend on the processing

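No paired analysis was possible because the groups share no tumor numbers. At the adjusted threshold, where limma called 0 genes, DESeq2 called 21 (5 higher, 16 lower) and limma with estimated tumor weights, whose estimation did not converge, called 110 (53 higher, 57 lower). Leaving out 1 tumor gave 0 to 54, the 54 without olaparib tumor 1521. The other alternatives called 0. For the effect of ADU-S100 with minus without olaparib the counts were 29 (DESeq2), 113 (tumor weights) and 0 to 86 with 1 tumor left out, the 86 again without 1521.

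At an unadjusted p below 0.05, against 50 genes (31 higher, 19 lower), there were 77 (33 and 44) with the same median in each tumor, 92 (50 and 42) with quantile normalization, 89 (87 and 2) with the scaling factor as a covariate, 91 (20 and 71) by edgeR scaled with the deposited factors, 98 (27 and 71) in edgeR with TMM, 130 (39 and 91) in DESeq2, 223 (103 and 120) with tumor weights and 15 (15 and 0) with the number series as a block. The methods' t-test gave 42 higher and 2 lower, a minimum mean count of 100 gave 31 and 6, and the 6 tumors alone 29 and 7. With 1 tumor left out the total ran from 21 to 199. The median of all genes moved to 0.44 with the covariate and to -0.31 by edgeR with those factors. For the difference between effects, against 75 genes (13 higher, 62 lower), there were 36 (14 and 22) with a mean count of at least 100, 125 by edgeR with the same factors, 142 in DESeq2, 249 with tumor weights, 21 with the block, 8 in the 15 series alone, and 50 to 229 with 1 tumor left out (229 without 1521).

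Genes not overlapping, 88 in all, numbered 178 in the 15 series alone and 111 to 331 with 1 tumor left out (331 without 1521, 196 without 1517). The genes that held, 10 in all, numbered 28 with the same median (13 higher, 15 lower, 6 shared with the 10), 32 with quantile normalization (18 and 14, 7 shared), 21 after background subtraction (16 and 5, 10 shared), 32 with the covariate (32 and 0, 5 shared) and 3 with the block (3 and 0, 2 shared). In the 6 tumors alone 13 held (12 and 1, 6 shared), without Cd74, Ctss, Mr1 and Smpd3. Of these settings, Ctss and Mr1 held only after background subtraction. H2-Aa and H2-DMb2 were among the genes that held in each of these settings and in the other refits.

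Of the 103 named genes, 20 changed sign somewhere (54 of 2920 values), none of them among the 10 that held. With the same median, Ccnd3 became 0.0127 and Cdk1 0.0073. With quantile normalization they were 0.018 and 0.14. With the covariate, Ccnd3 was 0.23, Gzmb 0.79, Masp2 0.092, Mcam 0.044, Msln 0.048, Nos2 0.023, Pou2af1 0.13, Smad3 0.22, Snai1 0.018, Tal1 0.35, Tbx21 0.37, Tfrc -0.11 and Thbd 0.72. In DESeq2, Ccnd3 was 0.000931. With tumor weights, Ccnd3 was 0.21, Cd4 -0.18, Cdk1 0.47, Cxcl10 -0.23, Ptprc -0.016, Tal1 0.019 and Tmem173 -0.22. With the block, Ccnd3 was 0.16 and Tmem173 -0.016. In the 15 series alone, Ccnd3 was 0.073, Cd8a -0.16, Cdk1 0.11, Foxp3 -0.20 and Tmem173 -0.20. After background subtraction Cdk1 was 0.15. Foxp3 was -0.091 with a pseudocount of 10 and -0.11 by edgeR with those factors. With 1 tumor left out, the ranges were -0.33 to 0.19 for Ccnd3, -0.19 to 0.40 for Cd4, -0.039 to 1.12 for Cd8a, -0.48 to 0.075 for Cdk1, -0.14 to 0.83 for Cxcl10, -0.53 to 1.14 for Foxp3, -1.58 to 0.52 for Gzmb, -0.031 to 0.59 for Ptprc, -1.02 to 0.040 for Smad3, -1.66 to 0.091 for Tal1, -1.76 to 0.074 for Tbx21, -0.052 to 2.0 for Tfrc, -1.87 to 0.19 for Thbd and -0.11 to 0.24 for Tmem173. List medians moved by more than the spread between tumors in 17 of 560 values and took the other sign in 52. The causes were not tested.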
